A study of Mus musculus with 9 samples.

Results

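Amino acids cross cell membranes through solute carriers, and the genes of 7 solute carrier families that move them were followed here through healthy liver, untreated HCC (hepatocellular carcinoma) and miR-22-treated HCC. The genes were chosen by name: every row of the count table whose symbol is Slc1a, Slc3a, Slc6a, Slc7a, Slc36a, Slc38a or Slc43a followed by a number alone was taken, which gave 61 of 55401 genes. Family Slc6a had 19 of them, Slc7a 15, Slc38a 11, Slc1a 7, Slc36a 4, Slc43a 3 and Slc3a 2. Symbols that end in a letter, such as Slc6a20a and Slc6a20b, and antisense or opposite-strand genes lie outside this choice.

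RNA was sequenced from whole livers of 9 female mice, 3 per group. HCC was induced at 6 weeks of age by hydrodynamic tail vein injection, which pushes plasmids into hepatocytes, of activated AKT and NRAS (RAS/AKT) on sleeping beauty transposons. Those mice then received either AAV8 carrying miR-22 behind a CMV promoter, which is not specific to hepatocytes, or blank AAV8 as the control (untreated HCC). Both HCC groups therefore carry the oncogenes, the transposase and a virus, and their livers were taken 5 weeks after the oncogenes and 4 weeks after the virus. Healthy livers came from wild-type mice without treatment, and no time is given for them. The strain is FVB/N in the protocol and the paper and C57BL/6 in a sample field, and the protocol also lists a β-catenin plasmid although the series is described as RAS/AKT. Libraries held 16664659 to 23908392 counts, so counting error was small for abundant carriers and large for those with a few counts. Akt1, the mouse gene of the injected oncogene, had between 22700.4 and 32454 normalized counts in untreated HCC, between 13027 and 21424 with miR-22, where replicate 4 was the highest, and between 2002 and 2105 in healthy livers. The HCC groups did not overlap. For female mice of this model, the paper also reports tumors over most of the untreated liver sections. It reports a lower ratio of liver to body weight with miR-22. The part of these differences in the values between the HCC groups was not tested. Normalized counts are counts divided by the library's TMM-adjusted size and brought to the mean size, and p-values measure only the spread between these livers.

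In background terms, hepatocytes take up amino acids from portal blood for protein synthesis, gluconeogenesis, urea synthesis and glutathione. Periportal hepatocytes take up glutamine and feed the urea cycle, and pericentral hepatocytes take up glutamate and make glutamine. System A carriers (Slc38a1, Slc38a2, Slc38a4) drive neutral amino acids in with sodium, system N carriers (Slc38a3) exchange glutamine, asparagine and histidine with sodium and protons in either direction, and the cationic carriers (Slc7a1, Slc7a2) bring in arginine and lysine. A further group of family 7 proteins are light chains that work only when bound to a heavy chain, Slc3a2 or Slc3a1, and most of these exchange one amino acid for another. When cells lack amino acids, the kinase GCN2 raises translation of the transcription factor ATF4, which binds composite elements in promoters of carriers and amino acid synthesis genes.

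Of the 61 genes, 36 passed edgeR's filter on low counts and were tested. The other 25 were not: 8 genes, among them Slc38a8, Slc6a3, Slc7a12 and Slc7a14, had no count in any of the 9 livers, and 17 had between 1 and 69 counts over all livers together. These 17 were Slc1a6, Slc1a7, Slc36a2, Slc36a3, Slc38a5, Slc38a11, Slc6a2, Slc6a5, Slc6a7, Slc6a14, Slc6a17, Slc6a19, Slc6a21, Slc7a3, Slc7a9, Slc7a10 and Slc7a13, most of them carriers of neurons, kidney or gut. A gene that passed the filter only because it is high in 1 group had to differ between groups, so the counts of called genes describe the tested genes and not the families.

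Between untreated HCC and healthy livers, 10 of the 36 tested carriers were called higher and 11 lower, and 15 were not called. A call needed a Benjamini-Hochberg adjusted p under 0.05 in edgeR's quasi-likelihood test and a fold change over 1.5. The carriers called higher were 27.8% of those tested, beside 22.7% of all 15717 genes tested, and those called lower were 30.6%, beside 18.1%. Their median log2 fold change was −0.13, beside 0.01 for all genes. With libraries scaled by total counts alone, the split was 13 higher and 6 lower, since the median of all genes then moved by 0.42 on the log2 scale. Between miR-22-treated and untreated HCC, 7 carriers were called higher (19.4%, beside 8.32% of all genes) and 4 lower (11.1%, beside 5.47%), with a median of 0.13 beside 0.002. Total counts alone gave 7 higher and 9 lower, with the median of all genes moved by −0.24. Between miR-22-treated HCC and healthy livers, 6 were called higher (16.7%, beside 16.9%) and 4 lower (11.1%, beside 7.05%), and total counts alone gave 8 and 3, with a shift of 0.19. Calls over all genes move with this scaling too, and their shares under it are not given here. The splits under total counts alone are therefore no result about the carriers. With each fold tested against 1.5 itself, 6 calls between the HCC groups were lost: all 4 lower ones, Slc6a8 (edgeR's adjusted p = 0.453), Slc1a4 (0.234), Slc43a2 (0.23) and Slc7a6 (0.0792), and of the higher ones Slc6a12 (0.108) and Slc3a1 (0.0526). Between treated and healthy livers Slc1a2 (0.169), Slc38a3 (0.0602) and Slc43a1 (0.343) were lost. The comparisons share livers, untreated HCC in those of HCC and healthy livers in those against healthy liver, so their values are set side by side and are not independent.

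**Figure D1:**
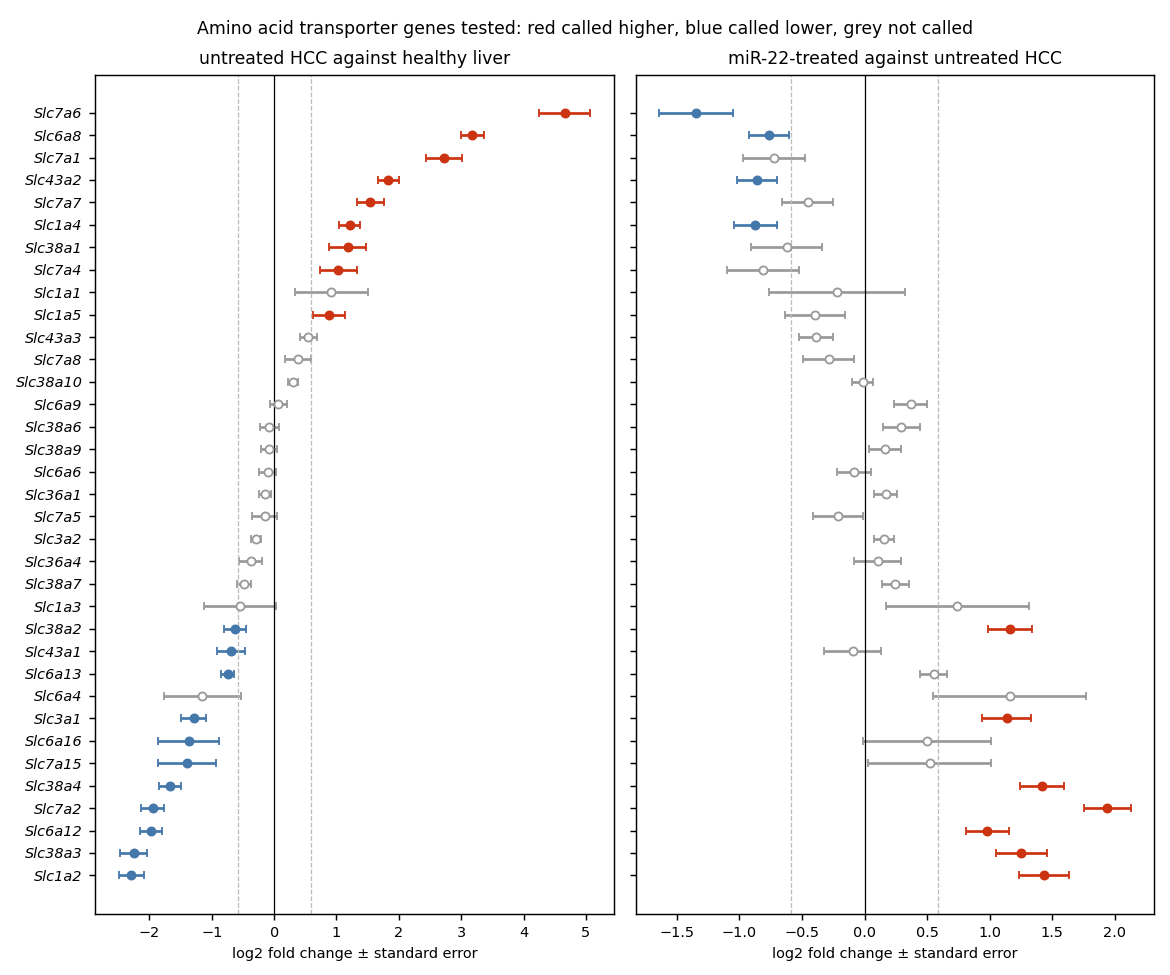
Log2 fold change (x axis, with its standard error) of each tested carrier but Slc7a11, whose healthy livers hold no count, for untreated HCC against healthy liver (left) and miR-22-treated against untreated HCC (right). Filled red points are called higher, filled blue points called lower, open grey points not called, and dashed lines mark a 1.5-fold change; carriers run from Slc7a6 at 4.66 to Slc1a2 at −2.29 in the left panel.

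In healthy liver, transcripts of these families came mostly from Slc38a3 and Slc38a4. Levels between genes are given only as counts per kilobase of exon, scaled to the same total over all genes with a known length, and serve only for the order within a group and for shares of the carriers' sum within a liver. On this per-length scale, the healthy mean was 1005 for Slc38a3, 658 for Slc38a4 and 195 for Slc7a2, followed by 164.2 for Slc6a12 and 164.1 for Slc6a13, which differed by less than their SD of 14.4 and 6.53. Next came Slc38a2 at 79.5, Slc38a10 at 68.3, Slc6a6 at 52.7 and Slc3a2 at 49.4. In untreated HCC, Slc38a3 (305, SD 57.4) and Slc38a4 (301, SD 15.6) were level within their spread, and Slc6a13 (141.8) and Slc38a10 (122) came next. In miR-22-treated HCC, Slc38a4 (646, SD 136) and Slc38a3 (586, SD 147) were again first and within their spread of each other.

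Slc38a3 and Slc38a4 together made up between 60.8% and 63.7% of the summed per-length level of the 61 genes in the healthy livers, between 37.0% and 43.3% in untreated HCC and between 48.8% and 55.2% with miR-22. The 3 ranges did not overlap. The share of Slc38a10, a carrier of intracellular membranes, ranged between 2.33% and 2.75% in healthy liver, between 7.48% and 8.40% in untreated HCC and between 3.68% and 5.47% with miR-22. Its normalized counts were 2689 ± 108, 3310.2 ± 66.8 and 3276 ± 185 (SD, n = 3). Shares within a liver do not depend on how libraries are scaled.

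**Figure D2:**
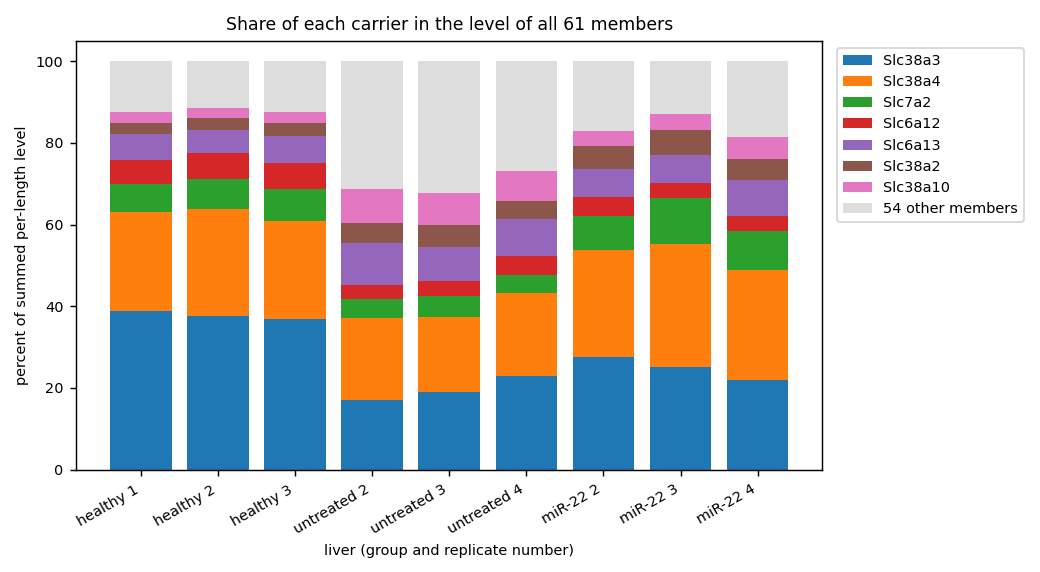
Percent of the summed per-length level of the 61 genes (y axis) in each liver (x axis), stacked by carrier, with the 54 carriers not named in grey. Slc38a3 and Slc38a4, the 2 lowest blocks, take over 60% in the healthy livers and least in untreated HCC.

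Among the sodium-coupled neutral carriers, the 2 leading hepatocyte carriers and the system A carrier Slc38a2 were lower in untreated HCC than in healthy liver and higher with miR-22 than without it, while the system A carrier Slc38a1 was higher in untreated HCC. Slc38a3, the system N glutamine carrier, lies on chromosome 9 (GRCm39 chr9:107527815-107547018, minus strand). It had 52076, 55024 and 49541 normalized counts in the healthy livers, 8975, 10222 and 13591 in untreated HCC, and 29645, 30683.5 and 17796 in miR-22-treated HCC. No 2 groups overlapped, and the treated livers lay between the others. Its log2 fold change was −2.26 (standard error 0.21, edgeR's adjusted p = 2.1e-06) in untreated HCC against healthy liver, 1.25 (0.21, 0.00132) with miR-22 against untreated HCC, and −1.004 (0.20, 0.00225) with miR-22 against healthy liver.

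Slc38a4 (chr15:96892693-96958593, minus strand), which carries small neutral and cationic amino acids and is imprinted in mice, had 21681, 25359 and 21589 normalized counts in healthy livers, 7049, 6565 and 7992 in untreated HCC, and 18691, 24482.5 and 14544.5 with miR-22. Untreated HCC was below every other liver, and the healthy and treated livers overlapped. The log2 fold changes were −1.67 (standard error 0.17, edgeR's adjusted p = 4.76e-06), 1.42 (0.17, 2.64e-04) and −0.25 (0.17, 0.275) in the order of comparisons above.

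Slc38a2, a system A carrier that is induced when amino acids are short in many cell types, had 3977, 4429 and 4613 normalized counts in healthy livers, 2729, 3053 and 2609 in untreated HCC, and 6376, 8064 and 4373.5 with miR-22. Untreated livers were the lowest, and treated replicate 4 lay within the healthy range while the other 2 treated livers lay above it. The log2 fold change was −0.63 (standard error 0.17, edgeR's adjusted p = 0.00768) in untreated HCC and 1.16 (0.18, 8.85e-04) with miR-22 against untreated HCC. Against healthy liver it was 0.53 (0.17, 0.0307), under the fold threshold, and was called with total counts alone (0.71, edgeR's adjusted p = 0.00443) and without treated replicate 4 (0.73, adjusted p = 9.69e-04). The call in untreated HCC was lost with total counts alone (−0.21, edgeR's adjusted p = 0.277), with the replicate block (−0.55, under the fold threshold) and with the fold tested against 1.5 (adjusted p = 0.419).

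Slc38a1, the system A carrier of many dividing cells, had few counts: 85.4, 47.7 and 49.0 normalized counts in healthy livers, 135.5, 186 and 92.0 in untreated HCC, and 87.7, 105.2 and 75.7 with miR-22. All untreated livers lay above the healthy ones, while the treated livers overlapped both. Its log2 fold change was 1.18 (standard error 0.29, edgeR's adjusted p = 0.00421) in untreated HCC and −0.62 (0.28, 0.134) with miR-22, which was called with total counts alone (−0.88, adjusted p = 0.0369), with no filter (adjusted p = 0.0438) and without untreated replicate 4 (−0.85, adjusted p = 0.0431). With miR-22 against healthy liver it was 0.56 (0.30, 0.172), which was called with the replicate block (1.07, edgeR's adjusted p = 0.0198). Exons of Slc38a1 share 2434 bases with Gm56740 and Gm56719 on the opposite strand. The remaining tested genes of this family were not called in any comparison: Slc38a6, Slc38a7, the lysosomal arginine sensor Slc38a9 and Slc38a10 had log2 fold changes of −0.08, −0.48, −0.09 and 0.30 in untreated HCC and 0.29, 0.25, 0.16 and −0.01 with miR-22 against untreated HCC.

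**Figure D3:**
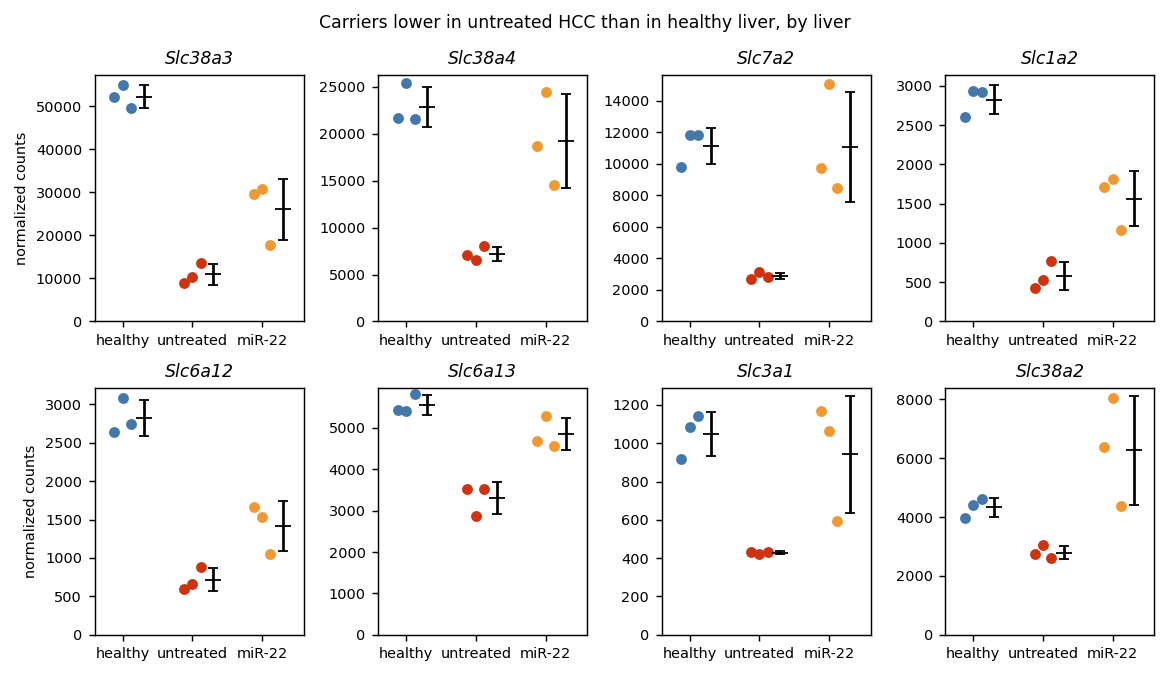
Normalized counts (y axis, from 0) of 8 carriers called lower in untreated HCC, by liver and group (x axis); points are livers and black bars mean and SD of 3 livers. Untreated HCC is the lowest group in every panel, and miR-22-treated replicate 4 (the rightmost orange point) is the lowest treated liver in each.

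The carriers of arginine and lysine differed in opposite directions. Slc7a2 (CAT-2, chr8:41315431-41375345, plus strand), whose A isoform is the low-affinity arginine carrier of liver, had 9774, 11789.8 and 11799 normalized counts in healthy livers, 2716, 3104 and 2821 in untreated HCC, and 9705, 15029 and 8455 with miR-22. Every untreated liver was below every other liver, and the treated livers lay on both sides of the healthy ones. The log2 fold change was −1.95 (standard error 0.19, edgeR's adjusted p = 2.4e-06) in untreated HCC, 1.94 (0.19, 6.87e-05) with miR-22 against untreated HCC, the largest rise of any tested carrier, and −0.01 (0.18, 0.978) with miR-22 against healthy liver. The last value is small against its error, which leaves room for a difference of either sign.

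Slc7a1 (CAT-1, chr5:148264220-148336848, minus strand), the high-affinity arginine carrier of most cells other than hepatocytes, had 18.3, 36.7 and 27.7 normalized counts in healthy livers, 165, 248 and 135.5 in untreated HCC, and 128, 103 and 101 with miR-22. The 3 groups did not overlap. Its log2 fold change was 2.72 (standard error 0.29, edgeR's adjusted p = 5.91e-06) in untreated HCC and 2.00 (0.30, 2.59e-04) with miR-22 against healthy liver. Between the HCC groups it was −0.72 (0.25, 0.0531), which just missed the threshold and passed it under 7 of 16 alternatives. Slc7a4, a relative of these carriers whose transport is unsettled, rose by a log2 fold change of 1.03 in untreated HCC (edgeR's adjusted p = 0.01) from 44.8 ± 17.4 normalized counts in healthy liver (SD, n = 3), and was at −0.81 with miR-22 (adjusted p = 0.06, not called), which was called under 6 of 16 alternatives. Its rise in untreated HCC was lost with the replicate block (0.85, edgeR's adjusted p = 0.0708) and with the fold tested against 1.5 (adjusted p = 0.0838). Exons of Slc7a4 share 2617 bases with P2rx6 on the opposite strand, and these libraries do not keep strand, so reads of the 2 genes cannot be told apart there. In all, exons of 18 of the 36 tested carriers overlap those of another gene. Among them are Slc6a9 (2491 bases), Slc38a1 (2434), Slc3a2 (743) and Slc7a7 (633).

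The log2 ratio of Slc7a1 to Slc7a2 counts within a liver, which no scaling of libraries can change, was −9.01, −8.30 and −8.71 in healthy livers, −4.04, −3.65 and −4.38 in untreated HCC, and −6.24, −7.18 and −6.39 with miR-22. The groups did not overlap, with untreated HCC highest, healthy liver lowest and treated livers between. The difference in means was 4.65 between untreated HCC and healthy liver, −2.58 between the HCC groups and 2.07 between treated and healthy livers. Each had p = 0.1 in a two-sided exact permutation test, the smallest that 3 livers against 3 allow, and 0.129 after adjustment over 9 such tests. Even in untreated HCC, Slc7a2 had the larger counts in every liver.

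The same ratio of the system A carrier Slc38a1 to the system N carrier Slc38a3 was −9.24, −10.2 and −9.97 in healthy livers, −6.05, −5.78 and −7.20 in untreated HCC, and −8.39, −8.18 and −7.87 with miR-22, again without overlap. The differences were 3.45, −1.81 and 1.64 in the same order, each with exact p = 0.1 (0.129 adjusted). They describe these 2 genes and not the systems, since the system A carriers Slc38a4 (−1.67) and Slc38a2 (−0.63) were called lower in untreated HCC. For the light chains Slc7a5 (LAT1) and Slc7a8 (LAT2), which import large neutral amino acids such as leucine, the ratio was −0.14, 0.43 and −0.01 in healthy livers, −0.65, −0.61 and −0.17 in untreated HCC, and −0.42, −0.04 and −0.63 with miR-22. Untreated HCC was below healthy liver by 0.57 (exact p = 0.1), and the HCC groups overlapped, with a difference of 0.11 (exact p = 0.6). The treated and healthy livers overlapped too, with a difference of −0.46 (exact p = 0.2).

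**Figure D4:**
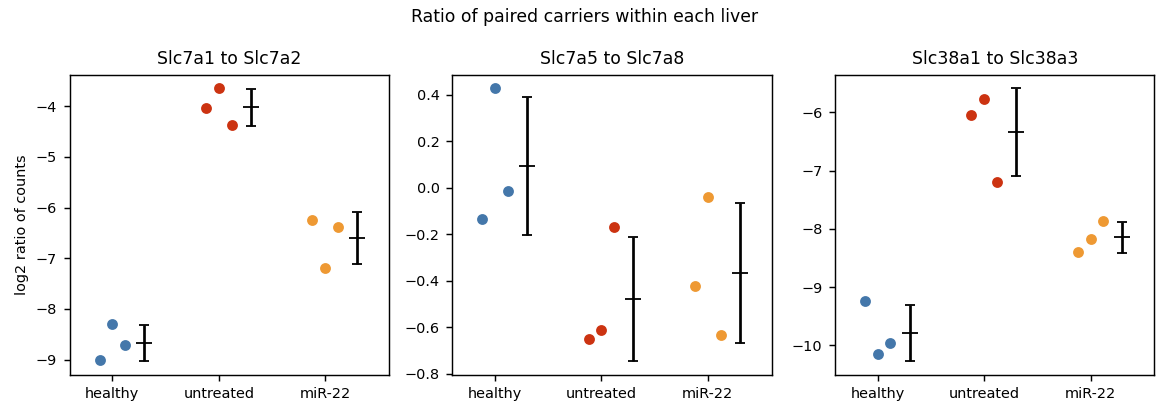
Log2 ratio of counts (y axis, a separate scale in each panel) of Slc7a1 to Slc7a2, Slc7a5 to Slc7a8 and Slc38a1 to Slc38a3 within each liver, by group (x axis); points are livers, and black bars mean and SD of 3 livers. In the left and right panels untreated HCC is highest, at means of −4.02 and −6.34, and healthy liver lowest, at −8.68 and −9.79, without overlap.

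The heavy chains, which bring light chains to the cell surface, differed in what they showed. Slc3a1 (rBAT, chr17:85335804-85374794, plus strand), the heavy chain of cystine and dibasic amino acid exchange, had 919.6, 1085 and 1141 normalized counts in healthy livers, 432, 419.6 and 432 in untreated HCC, and 1166, 1066.5 and 593 with miR-22. Untreated livers were lowest and nearly alike, and the treated livers spread from below to above the healthy ones. The log2 fold change was −1.29 (standard error 0.19, edgeR's adjusted p = 1.04e-04) in untreated HCC and 1.14 (0.19, 0.00165) with miR-22. Slc7a9, its light chain in kidney, had at most 2 counts in any liver. Exons of Slc3a1 and Prepl overlap over 1446 bases on opposite strands.

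Slc3a2 (4F2hc, CD98), the heavy chain of most other light chains, had 1338, 1242 and 1310.0 normalized counts in healthy livers, 1062, 981.7 and 1129.8 in untreated HCC, and 1149.6, 1146 and 1240.3 with miR-22. Untreated livers lay below healthy ones by little, and the log2 value of −0.29 (standard error 0.08, edgeR's adjusted p = 0.009) was under the fold threshold and turned to 0.13 with total counts alone. With miR-22 it was 0.16 (0.08, 0.199).

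Among the light chains, the cystine importer Slc7a11 and the arginine exchangers Slc7a6 and Slc7a7 were higher in untreated HCC, and the leucine importers Slc7a5 and Slc7a8 were not called in any comparison. Slc7a11 (xCT, chr3:49846975-50398070, minus strand) imports cystine for glutathione synthesis in exchange for glutamate. Healthy livers held none of its counts, and it had 77.3, 94.7 and 66.7 normalized counts in untreated HCC, and 79.9, 48.3 and 83.1 with miR-22. Against the floor of 3 counts per library, it was at least 22.7-fold higher in untreated HCC and at least 20.1-fold higher in miR-22-treated HCC than in healthy liver (edgeR's adjusted p = 1.55e-06 and 6.74e-06). Since Slc7a11 passed the filter only through the HCC groups, it had to differ from healthy liver, and these p-values add no support. The HCC groups overlapped, at −0.17 on the log2 scale (standard error 0.27, adjusted p = 0.708).

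Slc7a6 (y+LAT2, chr8:106895139-106925346, plus strand), which releases arginine in exchange for glutamine and sodium, had 1.22, 7.33 and 4.26 normalized counts in healthy livers, 122, 132 and 80.4 in untreated HCC, and 43.3, 37.1 and 49.8 with miR-22. The 3 groups did not overlap. The log2 fold change was 4.66 (standard error 0.41, edgeR's adjusted p = 1.22e-06) in untreated HCC, where the healthy counts are close to the floor, −1.35 (0.29, 0.00619) with miR-22 against untreated HCC, the largest fall of any tested carrier, and 3.31 (0.44, 1.05e-04) with miR-22 against healthy liver. Slc7a6 passed the filter only through the HCC groups, so its p-values against healthy liver add no support.

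Slc7a7 (y+LAT1), the related exchanger of epithelia and macrophages, had 199, 91.7 and 139 normalized counts in healthy livers, 389, 431 and 430.5 in untreated HCC, and 326, 249 and 336 with miR-22. The groups did not overlap. It rose by 1.54 (standard error 0.21, edgeR's adjusted p = 5.4e-05) in untreated HCC, and with miR-22 it was at 1.09 (0.22, 0.00197) against healthy liver and −0.45 (0.20, 0.126) against untreated HCC, the last of which was called with total counts alone (−0.69, adjusted p = 0.0278). The leukocyte markers Ptprc and Cd68 rose by 0.68 each in untreated HCC and S100a8 by 3.30, while the other 5 of 8 leukocyte markers, Adgre1, Csf1r, Clec4f, Cd3e and Cd79a, were not called. The summed level of the list ranged between 4984 and 5997 in healthy livers and between 4978 and 5552 in untreated HCC, and most of it in healthy liver was Clec4f, which was at 3252.6 ± 371 there and 2446 ± 347 in untreated HCC (SD, n = 3). The part of leukocytes in the value of Slc7a7 was not tested.

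Slc7a5 had 123, 119 and 109 normalized counts in healthy livers, 85.5, 102 and 127 in untreated HCC, and 107, 86.6 and 78.4 with miR-22. Untreated HCC overlapped both other groups, while the treated livers lay below the healthy ones (log2 fold change −0.37, standard error 0.20, edgeR's adjusted p = 0.174, not called). It was at −0.15 on the log2 scale (standard error 0.20, edgeR's adjusted p = 0.528) in untreated HCC that turned to 0.27 with total counts alone. Slc7a8 had 135, 88.0 and 109.8 in healthy livers, 135, 155.5 and 143 in untreated HCC, and 143, 89.1 and 122 with miR-22, also overlapping, and its log2 fold change in untreated HCC was 0.38 (0.21, 0.14), which was called with total counts alone (0.80, adjusted p = 0.00725). Slc7a15, another light chain, was called lower in untreated HCC (−1.39, edgeR's adjusted p = 0.0221) from 29.2 ± 15.01 to 10.9 ± 1.63 normalized counts (SD, n = 3), a call that was lost under 6 of 15 alternatives, 3 of them without healthy replicate 2 (−0.90, adjusted p = 0.149), untreated replicate 2 (−1.28, adjusted p = 0.0734) or untreated replicate 4 (−1.44, adjusted p = 0.0503).

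Family 43 moves neutral amino acids by facilitated diffusion. Slc43a2 (LAT4, chr11:75421362-75477630, plus strand) had 372, 442.5 and 369.9 normalized counts in healthy livers, 1276, 1749.6 and 1179.8 in untreated HCC, and 812, 612 and 887 with miR-22. The 3 groups did not overlap, and the log2 fold changes were 1.83 (standard error 0.17, edgeR's adjusted p = 1.7e-06) in untreated HCC, −0.86 (0.16, 0.00271) with miR-22 against untreated HCC and 0.97 (0.17, 7.58e-04) with miR-22 against healthy liver. Its exons share 2212 bases with Gm45606 on the opposite strand.

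Slc43a1 (LAT3), the family member known for a high level in liver, had 293, 329 and 273 normalized counts in healthy livers, 230.0, 179.8 and 146 in untreated HCC, and 239.7, 157 and 124 with miR-22. Both HCC groups lay below the healthy livers and overlapped each other. It fell by 0.69 on the log2 scale (standard error 0.22, edgeR's adjusted p = 0.0185) in untreated HCC and was −0.78 (0.23, 0.0167) with miR-22 against healthy liver. With total counts alone both calls were lost (−0.26, edgeR's adjusted p = 0.326, and −0.60, adjusted p = 0.0575). The first call was also lost with the replicate block (−0.53, under the fold threshold), with the fold tested against 1.5 (adjusted p = 0.344), and without healthy replicate 2 (−0.62, adjusted p = 0.067), untreated replicate 3 (−0.67, adjusted p = 0.0555) or untreated replicate 4 (−0.54, adjusted p = 0.073), and the second without healthy replicate 2 (−0.72, adjusted p = 0.061), treated replicate 3 (−0.72, adjusted p = 0.0527) or treated replicate 4 (−0.58, adjusted p = 0.0621). Slc43a3, a purine nucleobase carrier despite its family, was not called in any comparison and was at 0.55 in untreated HCC.

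**Figure D5:**
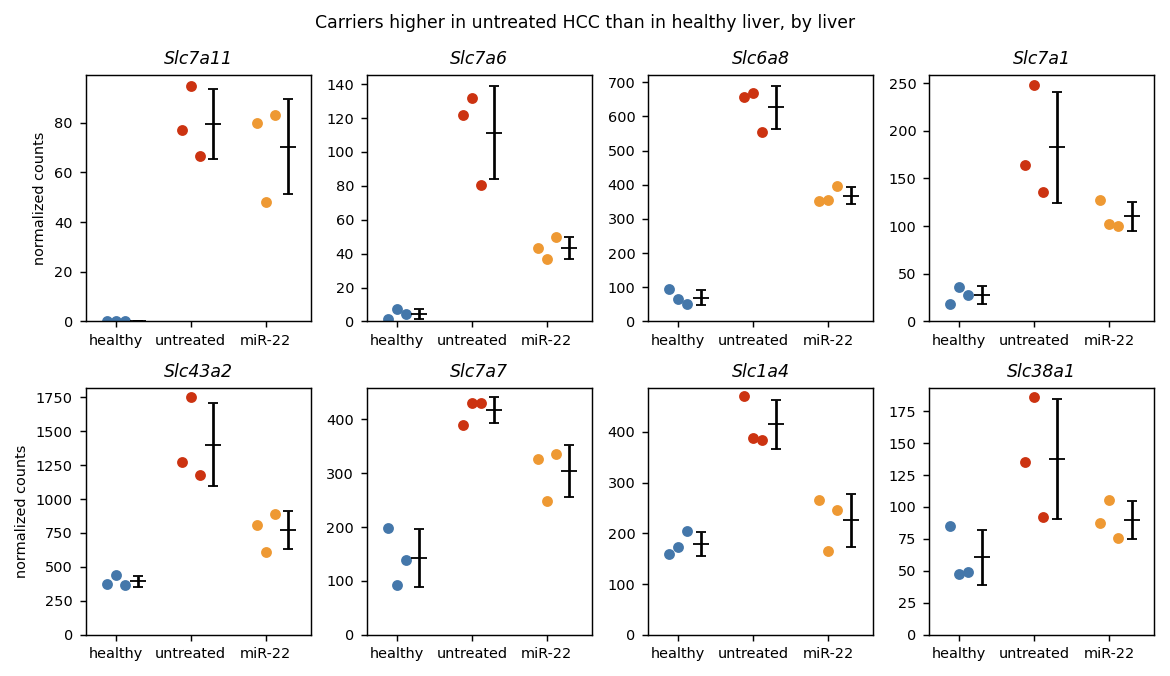
Normalized counts (y axis, from 0) of 8 carriers called higher in untreated HCC, by liver and group (x axis); points are livers and black bars mean and SD of 3 livers. Healthy livers are lowest on average in every panel, and at 0 for Slc7a11, while the treated livers overlap untreated HCC for Slc7a11 and Slc38a1 and lie below it in the other 6 panels.

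Among glutamate and neutral carriers of family 1, Slc1a2 (GLT-1, chr2:102488574-102621129, plus strand), the glutamate importer of pericentral hepatocytes and astrocytes, had the largest fall of any tested carrier in untreated HCC. It had 2608, 2939.8 and 2927 normalized counts in healthy livers, 432, 522 and 775 in untreated HCC, and 1713, 1813 and 1163 with miR-22. The 3 groups did not overlap, with treated livers between the others. Its log2 fold change was −2.29 (standard error 0.20, edgeR's adjusted p = 1.39e-06) in untreated HCC, 1.43 (0.20, 6.03e-04) with miR-22 against untreated HCC and −0.86 (0.19, 0.00445) with miR-22 against healthy liver. Of 6 pericentral markers, 4 were called lower in untreated HCC, among them Glul (glutamine synthetase) by 1.11 on the log2 scale, and 1, Cyp2e1, was called higher with miR-22 (log2 fold change 1.46).

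Slc1a4 (ASCT1, chr11:20252180-20282774, minus strand), an exchanger of serine, alanine and cysteine, had 159.8, 172 and 205 normalized counts in healthy livers, 471, 388 and 385 in untreated HCC, and 265, 166 and 245.5 with miR-22. Untreated HCC lay above all other livers, and the treated livers overlapped the healthy ones. The log2 fold change was 1.21 (standard error 0.17, edgeR's adjusted p = 6.85e-05) in untreated HCC and −0.87 (0.17, 0.00336) with miR-22 against untreated HCC. Slc1a5 (ASCT2), the glutamine exchanger of many dividing cells, was low, with 51.2, 37.9 and 35.2 in healthy livers, 68.2, 79.1 and 81.2 in untreated HCC, and 64.4, 42.1 and 66.4 with miR-22. Untreated HCC lay above both other groups, which overlapped, and the log2 fold change was 0.88 (0.25, 0.00932) in untreated HCC, a call lost with the fold tested against 1.5 (adjusted p = 0.131), and −0.39 (0.24, 0.265) with miR-22. The glutamate carriers Slc1a1 and Slc1a3 had under 20 normalized counts on average in every group and were not called in any comparison.

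Family 6 moves osmolytes, creatine and neurotransmitters with sodium and chloride. Slc6a12 (BGT-1, chr6:121320035-121342734, plus strand), the betaine carrier of liver, had 2633, 3088 and 2737 normalized counts in healthy livers, 597, 661 and 885.6 in untreated HCC, and 1667, 1533 and 1046.5 with miR-22. No 2 groups overlapped, and the log2 fold changes were −1.98 (standard error 0.18, edgeR's adjusted p = 1.38e-06), 0.98 (0.17, 0.00197) and −0.996 (0.17, 7.29e-04). Its neighbour Slc6a13 (GAT-2, chr6:121277186-121316121, plus strand), which carries GABA and taurine in liver, had 5427, 5410.2 and 5822 in healthy livers, 3518, 2867 and 3534.5 in untreated HCC, and 4688, 5300.3 and 4565 with miR-22. The groups did not overlap either. It fell by 0.75 on the log2 scale in untreated HCC (0.11, 7.43e-05) and was at 0.55 with miR-22 (0.11, 0.00346), under the fold threshold. The latter was called without untreated replicate 2 (0.60, edgeR's adjusted p = 0.0119), untreated replicate 4 (0.60, adjusted p = 0.00396) or treated replicate 4 (0.60, adjusted p = 0.00317). The call in untreated HCC was lost with total counts alone (−0.33) and with the fold tested against 1.5 (edgeR's adjusted p = 0.076).

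Slc6a8 (chrX:72716728-72726108, plus strand), the creatine carrier, had 93.9, 64.8 and 50.1 normalized counts in healthy livers, 657, 669.8 and 554 in untreated HCC, and 354, 355 and 397 with miR-22. The groups did not overlap. The log2 fold change was 3.18 (standard error 0.18, edgeR's adjusted p = 5.2e-08) in untreated HCC, the smallest p of any tested carrier, −0.76 (0.16, 0.00446) with miR-22 against untreated HCC and 2.41 (0.18, 1.3e-06) with miR-22 against healthy liver. The taurine carrier Slc6a6 and the glycine carrier Slc6a9 were not called in any comparison, with log2 fold changes of −0.11 and 0.07 in untreated HCC. Slc6a4, the serotonin carrier, was not called at 6.40 to 14.3 normalized counts in the group means, and Slc6a16 was called lower in untreated HCC (−1.37, edgeR's adjusted p = 0.028) from 20.6 ± 7.33 to 7.86 ± 3.09 normalized counts (SD, n = 3). That call was lost with total counts alone (−0.96, adjusted p = 0.1), with the fold tested against 1.5 (adjusted p = 0.0964), and without healthy replicate 3 (−1.06, adjusted p = 0.141), untreated replicate 2 (−1.47, adjusted p = 0.0556) or untreated replicate 3 (−1.09, adjusted p = 0.103).

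Slc6a19 (B0AT1), the neutral amino acid carrier of gut and kidney, was not tested. It had 1, 0 and 0 counts in healthy livers, 6, 22 and 20 in untreated HCC, and 8, 1 and 11 with miR-22. Its partner Cltrn (collectrin), which brings it to the surface in kidney, had 0 to 1.07 normalized counts in healthy livers and 46.4 to 67.8 in untreated HCC, where it was called higher (edgeR's adjusted p = 4.24e-06), and no fold is given against so few counts. Cltrn passed the filter only through the HCC groups, so this p-value adds no support. The proton-coupled carriers Slc36a1 and Slc36a4, which export amino acids from lysosomes and endosomes, were not called, with log2 fold changes of −0.15 and −0.37 in untreated HCC and 0.17 and 0.10 with miR-22.

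Markers of cell types moved with these values, and in bulk liver fewer cells of a type and less RNA per cell cannot be told apart. All 8 hepatocyte markers (Alb, Apoa1, Ttr, Tat, Cps1, Ass1, Hnf4a and Cyp2e1) were called lower in untreated HCC, with a median log2 fold change of −1.62, and 5 of 8 were called higher with miR-22. Their summed level was between 2530400 and 2619460 normalized counts in healthy livers, between 972713 and 1229860 in untreated HCC and between 1489270 and 1862940 with miR-22. It was lowest among treated livers in replicate 4, as were the 8 carriers plotted above as lower in untreated HCC. All 6 periportal markers were called lower in untreated HCC (median −2.37) and higher with miR-22 (median 1.29), while of the 6 pericentral markers 4 and 1 were. The hepatocyte markers ranged from −2.65 (Cyp2e1) to −0.71 (Hnf4a) in untreated HCC. The values of Slc38a3, Slc38a4, Slc1a2, Slc6a12, Slc7a2, Slc3a1, Slc6a13, Slc6a16 and Slc7a15 lay within that range, and those of Slc43a1 (−0.69) and Slc38a2 (−0.63) were nearer 0. The part of hepatocyte number in these values was not tested.

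The markers of bile ducts moved the other way. Of 5 ductal markers, 4 were called higher in untreated HCC (Spp1, Sox9, Epcam and Krt7) and 3 lower with miR-22, and their summed level, most of it Spp1, was between 570.3 and 812 normalized counts in healthy livers, between 64481 and 120547 in untreated HCC and between 30304 and 52389.8 with miR-22. Krt19 was not called. Of 5 stellate cell markers, Col1a1, Acta2 and Pdgfrb rose and Lrat fell in untreated HCC. Of 5 endothelial markers, Clec4g, Kdr and Stab2 fell. The 3 erythroid markers rose by 0.86 to 0.96 on the log2 scale. The part of these cells in the carriers that were higher in untreated HCC, such as Slc7a6, Slc7a1 and Slc43a2, was not tested. No marker on these lists was at 0 in every liver.

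The genes of the amino acid response, the targets of ATF4, were mostly higher in untreated HCC. Of 29 tested genes that are no carriers, 20 were called higher (69.0%, beside 22.7% of all genes) and 2 lower in untreated HCC, with a median log2 fold change of 1.11, and 3 were called higher (10.3%, beside 8.32%) and 7 lower (24.1%, beside 5.47%) with miR-22. Phgdh and Psat1 (serine synthesis) and Aldh18a1 (proline synthesis) rose by 6.65, 5.75 and 4.46 in untreated HCC, and were −1.02, −0.97 and −0.96 with miR-22 (edgeR's adjusted p from 0.0013 to 0.00528). Asns (asparagine synthetase) rose by 5.92 and was −0.69 with miR-22 (edgeR's adjusted p = 0.0425). Healthy livers held 2.13 to 6.11 normalized counts of Asns, close to the floor, so the size of its rise is uncertain. The transcript of Atf4 itself was not called (−0.06 and −0.06). Cth, which makes cysteine, fell by 2.36 and was 1.31 higher with miR-22, opposite to the cystine importer Slc7a11 in the first comparison. Among carriers known as ATF4 targets, Slc38a2, Slc3a2 and Slc7a5 did not rise in untreated HCC. Shmt2, on the list, was at a mean of 3697 normalized counts in healthy liver and 1809 in untreated HCC.

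Promoters were searched for the composite element bound by ATF4 with C/EBP proteins, TGATGNAA on both strands, in RefSeq windows of 250 bases before to 50 after the start (GRCm38.p6), of which 43 of the 61 genes had at least 1. It was in 3.97% of all 32851 windows and in those of 4 carriers, Slc7a11, Slc1a4, Slc7a7 and Slc6a21, the last of which was not tested. Among the 64 windows of the 43 genes, 5 held it (7.81%). Slc7a11, Slc1a4 and Slc7a7 were called higher in untreated HCC, and the first 2 of them are shown 5′ to 3′ on the gene's strand as examples, with the element in capitals. Slc7a11 holds 2 of them, on opposite strands, starting 66 and 47 bases before the start, and Slc1a4 holds 1 across the start.
Slc7a11, chr3:50443623-50443709, minus strand: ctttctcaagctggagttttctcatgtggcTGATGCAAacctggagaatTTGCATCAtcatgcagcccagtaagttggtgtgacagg
Slc1a4, chr11:20332710-20332747, minus strand: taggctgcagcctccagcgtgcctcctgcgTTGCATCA

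The other carriers called higher in untreated HCC, Slc7a6, Slc6a8, Slc7a1, Slc43a2, Slc38a1, Slc7a4 and Slc1a5, had no match to these letters in the windows searched, or no window. The antioxidant response element, TGACNNNGC on both strands, was in 12.4% of all windows and in 11 of the 64 (17.2%), which belong to 9 carriers, among them Slc7a1, Slc7a6, Slc38a2 and Slc6a13. The E-box CACGTG was in 7.15% of all windows and in 9 of the 64 (14.1%), which belong to 9 carriers, including Slc43a1, Slc38a7 and Slc36a1. The motifs can share bases with one another, and a match describes letters and not binding.

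The seed of miR-22-3p, bases 2 to 8 in capitals, pairs with GGCAGCT in a target. The mature sequence comes from RefSeq (GRCm38.p6 chr11:75463772-75463793, plus strand).
mmu-miR-22-3p: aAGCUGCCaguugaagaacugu
The canonical 3′ UTR (GENCODE vM39) of 11 of 35 tested carriers held the site (31.4%), beside 16.9% of 13550 tested genes. These were Slc38a1 with 4 sites, Slc6a13 with 2, and Slc6a8, Slc7a11, Slc7a4, Slc7a7, Slc1a3, Slc36a1, Slc38a10, Slc43a3 and Slc6a16 with 1 each. Longer UTRs hold more sites by their length alone, and no correction for length was made. The first site of each of 2 carriers is shown, with the site in capitals and the position in the UTR counted from its first base: Slc6a8, since it was the only carrier of the 4 called lower with miR-22 that had a site, and Slc38a1, since it had the most.
Slc6a8, position 378, chromosome X: cctagaaacaacagtGGCAGCTtggg
Slc38a1, position 574, chromosome 15: atgcccaatatttgaGGCAGCTctga
Of the 4 carriers called lower with miR-22, Slc7a6, Slc43a2 and Slc1a4 had no match to GGCAGCT in this UTR. Of the 11 carriers with a site, 7 had a log2 fold change below 0 between the HCC groups and 4 above 0. Slc6a8 alone was called lower (9.09%, beside 5.47% of all genes), and 0 were called higher (beside 8.32% of all genes). Of the 24 tested carriers with a 3′ UTR and no site, 10 were below 0 and 14 above. Among these 24, 3 were called lower (12.5%, beside the same 5.47%) and 7 higher (beside the same 8.32%). No difference between carriers with and without a site was tested. Those below 0 beside Slc6a8 were Slc7a4 (−0.81), Slc38a1 (−0.62), Slc7a7 (−0.45), Slc43a3 (−0.39), Slc7a11 (−0.17) and Slc38a10 (−0.01). Those above 0 were Slc1a3 (0.74), Slc6a13 (0.55), Slc6a16 (0.50) and Slc36a1 (0.17). A match describes letters only, and binding was not measured here.

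On a list of further carriers of amino acids and peptides, most of them outside the 7 families, 18 genes were tested. It also holds Slc6a20a and Slc6a20b, family 6 genes that the choice by name left out, and Slc7a6os, a gene beside Slc7a6 that is no carrier. Of the 18, 8 were called lower (44.4%, beside 18.1% of all genes), 1 higher and 9 not at all in untreated HCC. With miR-22, 3 were called higher (16.7%, beside 8.32%) and none lower. Slc25a13 (citrin, the aspartate and glutamate carrier of liver mitochondria) fell by 1.57 on the log2 scale (standard error 0.13, edgeR's adjusted p = 1.07e-06) and was 0.75 (0.13, 0.002) with miR-22. Slc16a10 (TAT1), which carries aromatic amino acids, fell by 0.87 and was 0.37 with miR-22, under the fold threshold. Slc25a15, the mitochondrial ornithine carrier of the urea cycle, fell by 1.20. The 1 called higher was Slc6a20b, a proline carrier of family 6, by 1.67.

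Of 16 tested genes of glutamine and glutathione metabolism, 3 were called higher (18.8%, beside 22.7% of all genes) and 6 lower (37.5%, beside 18.1%) in untreated HCC, and 3 were called higher (18.8%, beside 8.32%) and none lower with miR-22. Gls2, the liver glutaminase that works beside Slc38a3 in periportal hepatocytes, fell by 2.40 (standard error 0.19, edgeR's adjusted p = 5.62e-07) in untreated HCC and was 1.35 higher with miR-22 (0.19, 5.34e-04). Ggt1, which breaks down glutathione outside the cell and frees cysteine, had 0 to 1.22 normalized counts in healthy livers and 15.9 to 19.1 in untreated HCC, where it was called higher (edgeR's adjusted p = 5.84e-04). Ggt1 passed the filter only through the HCC groups, so this p-value adds no support. The 2 subunits of the enzyme that starts glutathione synthesis, Gclc and Gclm, were not called in untreated HCC, at 0.48 and −0.36.

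Of 24 tested genes that report amino acids to the growth kinase mTORC1, 4 were called higher (16.7%, beside 22.7% of all genes) and 6 lower (25%, beside 18.1%) in untreated HCC, shares near those of all genes, and 3 were called higher (12.5%, beside 8.32%) and none lower with miR-22. Rragd, a small GTPase of the lysosomal surface, rose by 3.89 (standard error 0.24, edgeR's adjusted p = 8.64e-08). The 3 called higher with miR-22 were Flcn, Fnip1 and Fnip2, which form the complex that acts on Rragc and Rragd, with log2 fold changes of 1.07, 0.97 and 1.11. In untreated HCC they were −0.72, −1.24 and −1.52. The lysosomal carrier of the same system, Slc38a9, was not called in any comparison.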

How the data were processed

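Per the paper's methods and the labels, non-stranded RNA-seq libraries were checked with FastQC 0.11.7, quantified with Salmon on GRCm39 and summed per gene with tximport. The authors deposited whole-number counts per gene for 55401 genes and 9 livers, not normalized and not filtered. A second deposited table of values normalized by the authors was not used. The version of Salmon is not given in the sources used here.

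Counts were tested with edgeR 4.0.16 in R 4.3.3 by its two-sided quasi-likelihood test, after TMM scaling and filterByExpr, with the 3 groups fitted together and no covariate, and p-values were adjusted by Benjamini-Hochberg over all 15717 genes that passed. The fold threshold of 1.5 follows the study's methods. A fold against a group with no count in any library is a lower bound, set by a floor of 3 counts per library. Libraries held 16664659 to 23908392 counts. Livers of the same group differed by more than counting error (chi-square per degree of freedom between 6.59 and 31.3), and no 2 of them appeared to be the same library. Named with the value in every liver were 16 preset carriers and, for each of 2 comparisons, the 8 called carriers with the smallest p; called carriers beyond these were named with their log2 fold change, and carriers not called by name, range or count. Log2 ratios used counts plus 0.5. Exon lengths and coordinates of genes come from GENCODE vM39 on GRCm39, and 93.38% of genes in the table had a length. The paper names an earlier GENCODE release, so gene models can differ from those the authors used. The code was tested on simulated counts. Values of some single genes are not reported here. The carriers and gene lists were chosen with earlier results of these data known, so no list was tested as a set. Of 143 list entries, 133 matched by symbol and 7 by synonym. Alternatives were DESeq2 1.42.0, DESeq2 size factors, upper-quartile scaling, total counts alone, no filter, at least 10 counts in every library, a fit of 2 groups alone, a block for the replicate number, no fold threshold, edgeR's glmTreat, limma-trend (limma 3.58.1) and each liver left out in turn. Plots used matplotlib 3.10.9.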

Additional observations from a re-analysis of the deposited data

How the results depend on the processing

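The numbers of carriers called (21, 11 and 10 in the 3 comparisons) stayed within 1.5 times under every alternative but one: with each fold change tested against 1.5 itself, 5 carriers, all higher, were called between miR-22-treated and untreated HCC, where fewer genes can pass by construction. Leaving out each liver in turn gave 19 to 22, 11 to 15 and 9 to 11. The replicate block gave 17, 11 and 12, but same-numbered livers of the HCC groups did not deviate together (correlations of −0.227 to −0.116), so the numbers were not taken as pairs. For the 24 of 36 tested carriers recomputed singly (the other 12 were not), 1060 values kept direction and call, 38 lost the call, 24 gained it and 18 turned sign, all of the last small in the reported fit. Turned by total counts alone were Slc7a5 (0.27) and Slc3a2 (0.13) in untreated HCC against healthy liver, Slc3a2 (−0.077) between the HCC groups, and Slc7a2 (0.17), Slc3a1 (0.020) and Slc3a2 (0.051) in treated HCC against healthy liver. At least 10 counts in every library gave 0.020 for Slc7a2 there. Turned by leaving out a liver were Slc7a11 (range −0.304 to 0.037, highest without treated replicate 3) and Slc43a1 (−0.41 to 0.11, above 0 without untreated replicate 2, at 0.087, or treated replicate 4) between the HCC groups, and in treated HCC against healthy liver Slc7a2 (−0.29 to 0.15, above 0 without healthy replicate 2 or 3 or treated replicate 2 or 4), Slc7a8 (−0.078 to 0.25, below 0 without healthy or treated replicate 2), Slc3a1 (−0.36 to 0.090, highest without treated replicate 4) and Slc7a4 (−0.029 to 0.53, lowest without healthy replicate 1). The ratio of Slc7a5 to Slc7a8 between the HCC groups ran from −0.050 to 0.27 as livers were left out. The cause was not tested. Depth limits carriers with few counts, such as Slc7a6 and Slc7a15.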
